A study of Homo sapiens with 2 samples.

Results

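The expression of 40 genes of DNA replication and S phase was examined in HSC-1 cells, a cutaneous squamous cell carcinoma line, after depletion of the long noncoding RNA LINP1. The genes were taken by name from a fixed list that was chosen with earlier results of these data known. All 40 were found among the 44591 genes of the count table. Total RNA was sequenced from cells that received a control siRNA (siNC) or siRNA against LINP1 (siLINP1), with 1 library per condition. Both cultures were grown in serum, transfected at about 70% confluency, kept 6 h without serum and then 24 h in medium with serum. The labels do not name the siLINP1 oligonucleotide, and with 1 library no spread between cultures can be had, so no p-value is given. Values in the form of a log2 fold change set siLINP1 against siNC after median-of-ratios scaling, with negative values lower in siLINP1, and the 95% interval of each covers counting error only.

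The siNC library held 18829544 counted reads and the siLINP1 library 15383081. LINP1 itself (hg19 chr10:6779344-6780901, plus strand) was read 167 times in siNC and 23 times in siLINP1 (log2 fold change -2.65, interval -3.35 to -2.02). Markers of squamous keratinocytes were scarce, since 10 of 15 lay under 1 RPKM (reads per kilobase of gene, scaled by total count) in siNC and 9 in siLINP1, with 32 and 24 reads of KRT5 and 6 and 8 of TP63. Other squamous markers had more reads, with PERP at 1158 and 1398, JUP at 301 and 154, SFN at 264 and 138 and KRT14 at 243 and 87. The mesenchymal genes VIM and SPARC had 61097 and 41992 reads and 34148 and 21107 reads. Of the other mesenchymal markers, S100A4 had 6329 and 3466 reads, CDH2 1862 and 1092 and FN1 1151 and 753. PDGFRB had 369 and 172 reads and COL1A1 190 and 79. Scarce were COL1A2 at 4 and 8 reads, COL3A1 at 8 and 6 and THY1 at 1 and 0. Summed over each list, squamous markers had 2291 and 2052 reads and mesenchymal markers 105159 and 68675. The 12 markers of stomach epithelium had together 502 and 55 reads, with PGC at 194 and 0, LIPF at 82 and 0 and PGA3 at 95 and 0. Not all went that way, since ATP4A had 13 and 28 reads and MUC6 17 and 23. The part of these markers in the results was not tested.

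A cell licenses its replication origins in G1 phase, when the origin recognition complex, CDC6 and CDT1 load the MCM2-7 helicase onto DNA. In S phase CDC45 and the GINS complex turn the helicase into a moving fork, where the PCNA clamp, its RFC loader and the replicative polymerases copy both strands. Many of these genes are transcribed under E2F transcription factors, which act together with cyclin E at the G1/S boundary, so their mRNA levels tend to follow the share of proliferating cells.

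The replication genes differed little between the libraries as a group. Of the 40 genes, 26 were lower and 14 higher in siLINP1, with a median log2 fold change of -0.06 (interval of the median -0.25 to 0.01), and scaling by the total count turned this into 19 lower and 21 higher with a median of 0.02. Over the 13336 genes with at least 100 reads in both libraries together, the median was -0.03 under the first scaling and 0.05 under the second. Under the first scaling 65.0% of the members were lower, against 53.2% of these genes and 52.2% of those with at least 10 reads. The 40 genes had at least 119 reads each. They took 0.188% of all reads in siNC (exact 95% interval 0.186 to 0.190) and 0.186% in siLINP1 (0.184 to 0.188), so their share of the library was within counting error. Fewer cells in S phase and less of this RNA per cell cannot be told apart in bulk RNA.

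Only 3 members were lower by more than 1.5-fold, and none was higher by more than 1.5-fold. These 3 were GINS2, LIG1 and E2F2, or 7.5% of the members, where 6.77% of all genes with at least 100 reads were that much lower and 8.72% that much higher. Under total count and TMM scaling E2F2 lay short of the limit, which left 2 members. With all genes of at least 10 reads as background the shares were 13.0% and 14.4%. Nearest to the limit, E2F2 lay just past it at 1.53-fold lower and PCNA just short of it at a log2 fold change of -0.58. By counting error alone, the interval lay wholly below no change for 14 members (35%, against 33.4% of genes with at least 100 reads and 25.6% of those with at least 10). It lay wholly above for 3 members, MCM7, RFC2 and RRM2 (7.5%, against 28.8% and 23.0%), and spanned no change for 23. Under total count scaling 12 members, without MCM6 and E2F2, lay wholly below. Wholly above lay 6, with ORC6, RFC1 and E2F1 added. Under median-of-ratios scaling the share of members wholly below no change was thus near the background. The share wholly above was under it, at 7.5% against 28.8%. No member had its whole interval beyond 1.5-fold in either direction, where 1.97% of genes with at least 100 reads did so downward and 4.18% upward (2.06% and 3.98% with at least 10 reads).

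**Figure D1:**
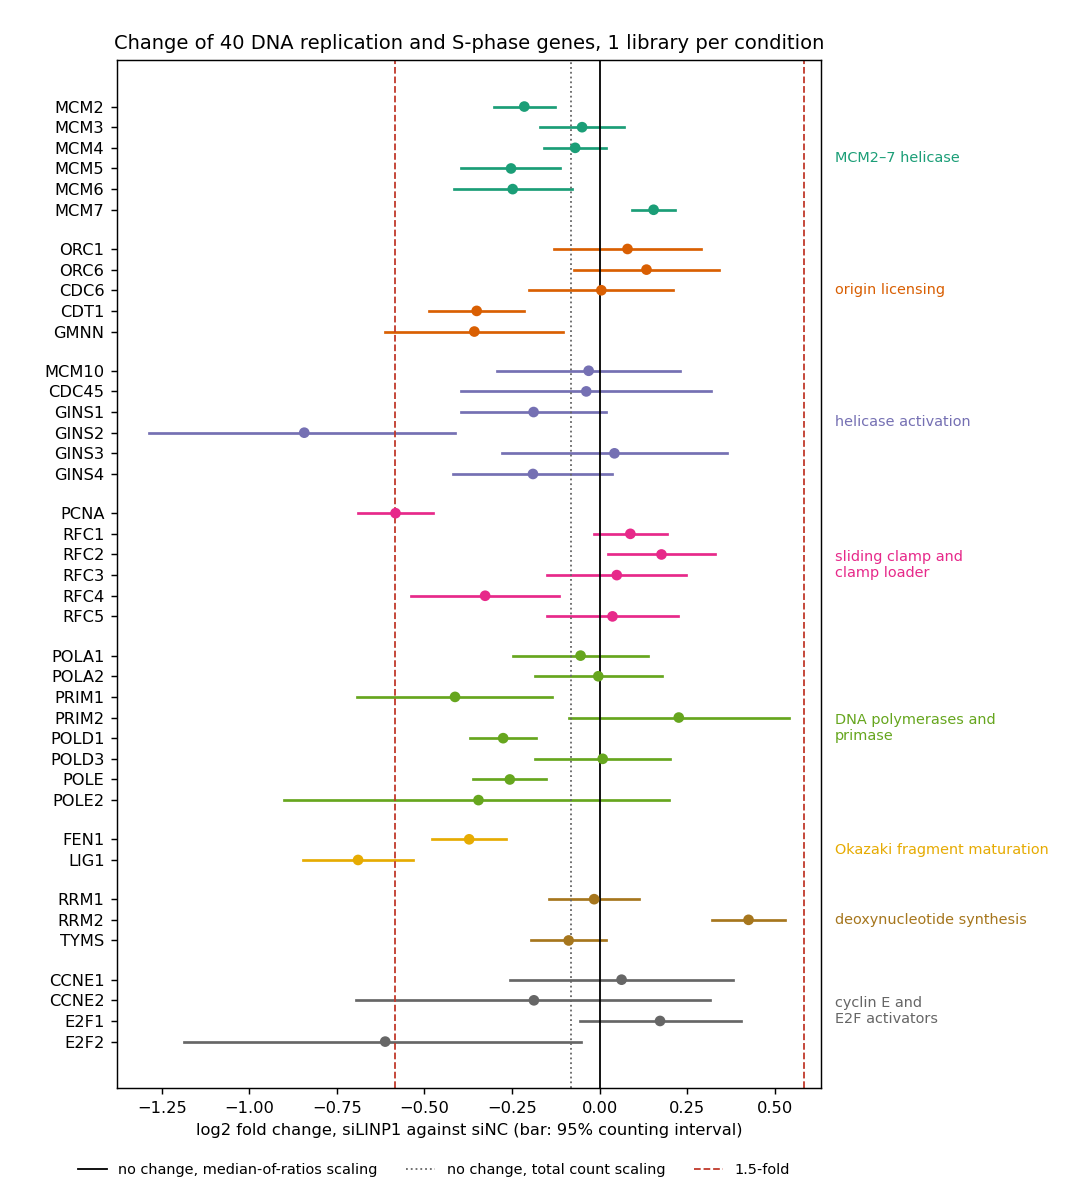
log2 fold change of each member, siLINP1 against siNC (x axis), by role in replication, with 95% counting intervals as bars. Most points lie between the 1.5-fold lines, with GINS2, LIG1 and E2F2 beyond the lower line and RRM2 farthest to the right at 0.43.

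Since E2F factors are known to bind many promoters of this kind, the promoter windows of the 5 members with the largest difference in either direction are shown. RefSeq windows of assembly GRCh38.p14, 250 bases before to 50 after the annotated start, were matched for 35 of the 40 members, and MCM4, MCM5, GINS4, POLD3 and CCNE2 had no match. The E2F word was taken as any of TTTCCCGC, TTTCGCGC, TTTGCCGC and TTTGGCGC, searched on both strands. Capitals mark these words. GINS2 lies on the minus strand at chr16:85688905-85689204, LIG1 on the minus strand at chr19:48170295-48170594, E2F2 on the minus strand at chr1:23531184-23531483, PCNA on the minus strand at chr20:5126573-5126872 and RRM2 on the plus strand at chr2:10122489-10122788. The sequences read 5′ to 3′ on the strand of the gene.
GINS2: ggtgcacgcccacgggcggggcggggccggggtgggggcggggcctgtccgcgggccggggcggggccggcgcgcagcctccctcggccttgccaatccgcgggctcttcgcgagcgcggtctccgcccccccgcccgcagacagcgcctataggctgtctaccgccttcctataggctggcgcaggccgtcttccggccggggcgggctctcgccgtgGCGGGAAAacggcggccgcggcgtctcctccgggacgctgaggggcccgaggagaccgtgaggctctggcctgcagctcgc
LIG1: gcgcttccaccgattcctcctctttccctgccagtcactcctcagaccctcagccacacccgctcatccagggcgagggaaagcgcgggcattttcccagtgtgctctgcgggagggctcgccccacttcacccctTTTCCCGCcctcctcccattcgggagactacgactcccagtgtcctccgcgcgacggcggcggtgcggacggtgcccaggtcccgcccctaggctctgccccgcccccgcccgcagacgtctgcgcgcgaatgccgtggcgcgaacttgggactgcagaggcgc
E2F2: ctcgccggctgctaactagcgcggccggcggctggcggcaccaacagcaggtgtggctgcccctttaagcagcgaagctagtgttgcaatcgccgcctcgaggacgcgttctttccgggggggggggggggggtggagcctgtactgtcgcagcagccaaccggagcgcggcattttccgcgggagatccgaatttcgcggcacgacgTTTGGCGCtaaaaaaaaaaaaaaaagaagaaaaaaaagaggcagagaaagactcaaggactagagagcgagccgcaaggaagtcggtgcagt
PCNA: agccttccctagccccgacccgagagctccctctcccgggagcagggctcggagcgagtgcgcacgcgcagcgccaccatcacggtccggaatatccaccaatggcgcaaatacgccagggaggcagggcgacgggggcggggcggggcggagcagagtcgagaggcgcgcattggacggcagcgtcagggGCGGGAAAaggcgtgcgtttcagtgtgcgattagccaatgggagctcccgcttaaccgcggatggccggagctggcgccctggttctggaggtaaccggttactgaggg
RRM2: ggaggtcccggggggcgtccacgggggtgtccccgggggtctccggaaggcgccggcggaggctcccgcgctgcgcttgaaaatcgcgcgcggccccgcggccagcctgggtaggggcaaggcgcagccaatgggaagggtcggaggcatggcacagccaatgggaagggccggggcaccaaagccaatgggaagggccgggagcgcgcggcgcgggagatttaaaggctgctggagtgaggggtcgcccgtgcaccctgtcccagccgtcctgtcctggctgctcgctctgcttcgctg

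The 4 of these genes that were lower in siLINP1 each held 1 E2F word, and the RRM2 window held none. The next lowest matched members, PRIM1 (-0.41), FEN1 (-0.37) and GMNN (-0.36), held no E2F word either. RRM2 and PCNA each held 3 CCAAT words and GINS2 held 1. Among the 35 matched members 19 held an E2F word (54.3%), against 3.33% of all 27305 windows and 5.41% of the 9664 windows of genes with at least 100 reads. As the list was made of genes of a kind known to be bound by E2F, this share describes the list and is no test. The 26 words started at positions -187 to 8 from the start site, 20 of them at -100 or later. Words on opposite strands overlapped in MCM2 and MCM6 and were counted separately. Members with a word had a median log2 fold change of -0.19 (range -0.84 to 0.17, 14 of 19 lower), and the 16 without one had 0.01 (range -0.41 to 0.43, 8 of 16 lower). Among other genes with at least 100 reads the medians were -0.03 for the 504 with a word and -0.03 for the 9124 without. Of these, 53.4% and 53.5% were lower. Under total count scaling MCM3, POLA1 and POLA2 with a word and MCM10, RRM1 and CDC45 without one turned higher. The CCAAT word, known as a promoter element bound by the factor NF-Y and searched on both strands, was in 54.3% of the members' windows and in 35.7% of all windows. Members holding it had a median of -0.03 and those without it -0.25. These are matches of letters, and the ranges of the compared members overlapped. A link between a word and the change was not tested, as each condition had 1 library.

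Levels of the members were compared as RPKM, which is scaled by gene length and total count. They ranged from 0.777 RPKM for E2F2 to 70.2 for PCNA in siNC, and from 0.538 for E2F2 to 73.6 for MCM7 in siLINP1. The 3 members in the top 10% of the 14275 protein-coding genes with at least 10 reads were PCNA, MCM7 and TYMS in both libraries. By role, the medians of the log2 fold change were -0.14 for MCM2-7, 0.01 for licensing, -0.11 for helicase activation, 0.04 for clamp and loader, -0.16 for polymerases and primase and -0.53 for Okazaki fragments. Those of deoxynucleotide synthesis (-0.02) and of cyclin E and E2F (-0.06) became 0.07 and 0.02 under total count scaling. In level, 25 members in siNC lay above the median of the same protein-coding genes and 23 in siLINP1. PCNA, MCM7 and TYMS led in both conditions, but their order differed. In siNC and siLINP1, PCNA had 70.2 and 49.6 RPKM, MCM7 62.5 and 73.6 and TYMS 53.8 and 53.6.

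**Figure D2:**
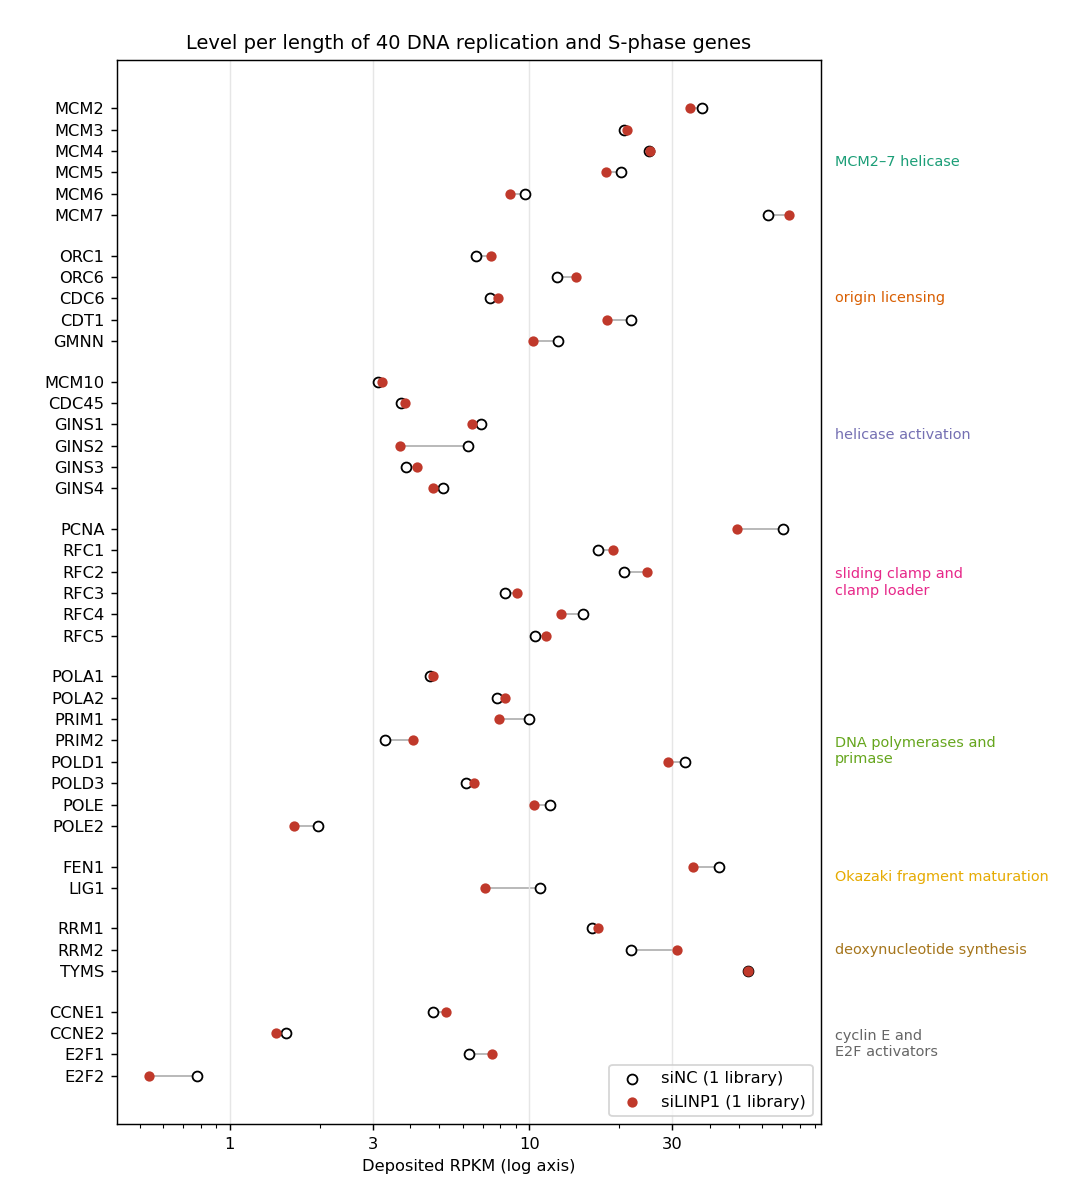
Level of each member in RPKM on a log axis, siNC as open and siLINP1 as filled points, 1 library each. PCNA, LIG1, GINS2 and E2F2 show the widest gaps to the left, and RRM2 the widest gap to the right.

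MCM2 to MCM7 form the ring-shaped helicase that unwinds the origin. MCM2 had 2488 reads in siNC and 1854 in siLINP1 (log2 fold change -0.21, interval -0.30 to -0.13). MCM5 had 974 and 707 reads (-0.25, -0.39 to -0.11) and MCM6 688 and 501 reads (-0.25, -0.42 to -0.08). These 3 subunits were lower beyond counting error by a small amount, though the interval of MCM6 included no change under total count scaling. MCM3, with 1252 and 1046 reads, and MCM4, with 2331 and 1921, had values of -0.05 and -0.07 with intervals across no change. MCM7, the most read member, was higher at 4297 and 4136 reads (0.15, 0.09 to 0.22). AP4M1, which overlaps MCM7 on the other strand, had 12% as many reads as MCM7 and was lower (639 and 375 reads), and the strand setting of the counting is not given in the sources used here. Although the ring holds 1 copy of each subunit, the mRNA levels spanned 6.47-fold between MCM7 and MCM6 in siNC and 8.56-fold in siLINP1.

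Among the licensing genes, the loading factor CDT1 and its inhibitor GMNN (geminin) were lower together. CDT1 had 1103 reads in siNC and 748 in siLINP1 (-0.35, -0.49 to -0.22), and GMNN had 320 and 216 (-0.36, -0.61 to -0.10). Their RPKM ratio was therefore 1.75 in siNC and 1.76 in siLINP1. The origin-binding subunits ORC1 (396 and 362 reads, 0.08) and ORC6 (393 and 373, 0.13) and the loader CDC6 (424 and 368, 0.01) had intervals that include no change. The interval of ORC6 lay above no change under total count scaling.

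In the helicase-activating group, GINS2 had the largest difference of all members. GINS2 (hg19 chr16:85711280-85722588, minus strand) was read 139 times in siNC and 67 times in siLINP1, or 1.79-fold lower (-0.84, -1.29 to -0.41), so its value is also among the least precise. GINS1 (444 and 337 reads, -0.19) and GINS4 (372 and 282, -0.19) lay lower with intervals that reach just past no change, and GINS3 (174 and 155) was at 0.04. These 4 genes encode a single complex. An antisense gene that overlaps GINS4 on the other strand had 17.4% as many reads as GINS4 and was lower (72 and 42 reads). CDC45, the third part of the active helicase, had 146 and 123 reads (-0.04, -0.40 to 0.32), and MCM10, which helps the helicase start, had 267 and 226 (-0.03, -0.29 to 0.23).

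PCNA (hg19 chr20:5095599-5107268, minus strand), the ring-shaped clamp that holds polymerases on DNA, had 1905 reads in siNC and 1100 in siLINP1 (-0.58, -0.69 to -0.48). Its level was 70.2 and 49.6 RPKM. PCNA-AS1, on the opposite strand, had 25.1% as many reads as PCNA and was lower as well (457 and 298). The clamp loader did not follow as a whole. RFC4 was lower at 451 and 311 reads (-0.33, -0.54 to -0.12), but it overlaps EIF4A2, a gene with 973% as many reads on the other strand. RFC2 was higher at 718 and 702 reads (0.18, 0.02 to 0.33). RFC1 with 1561 and 1435 reads (0.09), RFC3 with 447 and 400 (0.05) and RFC5 with 497 and 441 (0.04) had intervals across no change. That of RFC1 lay above no change under total count scaling.

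Of the polymerases and primase, the catalytic subunits of the 2 main replicative polymerases were lower. POLD1, the catalytic subunit of polymerase delta, had 2211 and 1580 reads (-0.28, -0.37 to -0.18), and POLE, that of polymerase epsilon, had 1765 and 1278 (-0.26, -0.36 to -0.15). PRIM1, which makes the RNA primers, had 274 and 178 reads (-0.41, -0.69 to -0.14). The accessory subunits among the members and polymerase alpha had intervals across no change. They were POLA1 (491 and 409 reads, -0.05), POLA2 (539 and 465, -0.00) and PRIM2 (170 and 172, 0.23), with POLD3 (478 and 416, 0.01) and POLE2 (72 and 49, -0.35). POLE2 was read so little that its interval ran from -0.90 to 0.20. It overlaps the pseudogene STK16P1, which had 10.7% as many reads on the other strand. Accessory subunits outside the members were mixed. POLD2 (-0.43, -0.53 to -0.34) and POLE4 (-0.56, -0.77 to -0.35) were lower. POLD4 (-0.10, -0.21 to 0.01) spanned no change and POLE3 (0.12, 0.01 to 0.24) was higher.

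The genes that finish Okazaki fragments, the short pieces of the lagging strand, were both lower. LIG1 (hg19 chr19:48618702-48673860, minus strand), the ligase that joins the fragments, was read 953 and 511 times, or 1.61-fold lower (-0.69, -0.85 to -0.53). FEN1, the nuclease that trims their flaps, had 1856 and 1240 reads (-0.37, -0.48 to -0.27). In level LIG1 went from 10.9 to 7.13 RPKM and FEN1 from 42.9 to 35.1.

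Deoxynucleotide synthesis held the largest positive value. RRM2 (hg19 chr2:10262695-10271546, plus strand), the regulated small subunit of ribonucleotide reductase, had 1417 reads in siNC and 1646 in siLINP1, 1.34-fold higher after scaling (0.43, 0.32 to 0.53), and its level was 21.9 and 31.2 RPKM. RRM1, the large subunit of the same enzyme, had 1088 and 931 reads (-0.02, -0.14 to 0.11). TYMS, which makes thymidylate, had 1604 and 1305 reads (-0.09, -0.19 to 0.02). ENOSF1, which overlaps TYMS on the other strand, had 72.6% as many reads as TYMS.

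The G1/S activators among the members were read at low depth. E2F2 (hg19 chr1:23832920-23857712, minus strand) was read 76 and 43 times, or 1.53-fold lower (-0.61, -1.19 to -0.05), an interval that included no change under total count scaling, while E2F1 had 319 and 311 (0.17, -0.06 to 0.40). The interval of E2F1 lay above no change under total count scaling. CCNE1 (176 and 159 reads, 0.06) and CCNE2 (79 and 60, -0.19) encode the E-type cyclins, and both had intervals across no change. CCNE2 overlaps INTS8, which had 1180% as many reads on the other strand. E2F2 was under 1 RPKM in both libraries.

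Ratios of partner genes within a library do not depend on the scaling. They are given for some of 18 pairs that were chosen after the values had been seen, as a description. The PCNA to RFC1 ratio was lower by 0.67 on the log2 scale (interval of the change -0.82 to -0.52), and its RPKM value was 4.15 in siNC and 2.60 in siLINP1. The RRM1 to RRM2 ratio had a change of -0.44 (-0.61 to -0.28) and RPKM values of 0.738 and 0.543. The PRIM1 to PRIM2 ratio had a change of -0.64 (-1.06 to -0.22) and the GINS2 to GINS3 ratio one of -0.89 (-1.44 to -0.34). These pairs set members already seen lower beside others seen near or above no change, so their values describe the choice. The CDT1 to GMNN ratio (0.01, -0.28 to 0.30), the GINS1 to GINS4 ratio (0.00, -0.31 to 0.31) and the POLA1 to POLA2 ratio (-0.05, -0.32 to 0.22) had intervals around 0.

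**Figure D3:**
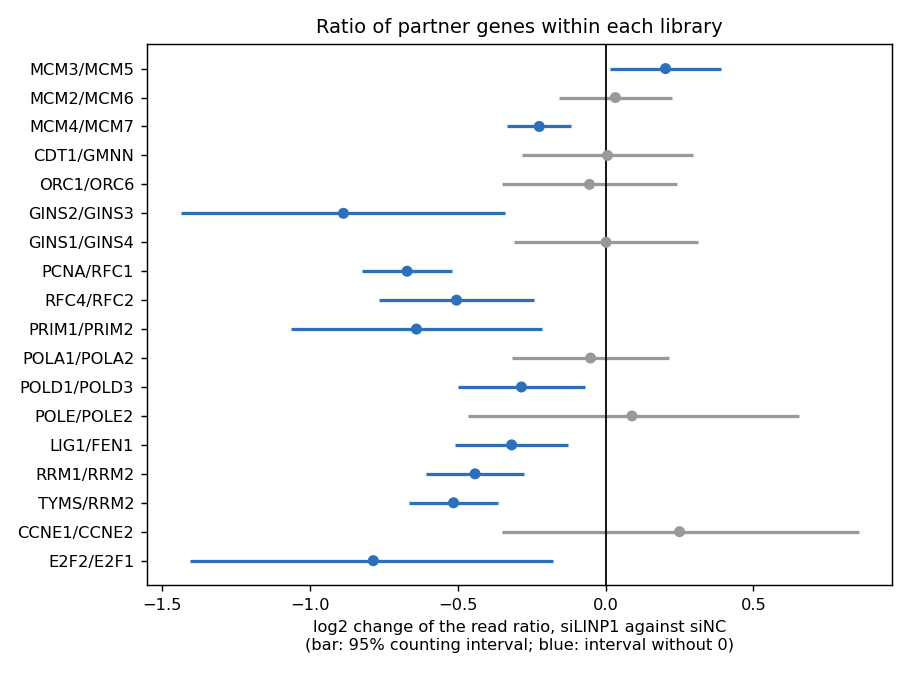
log2 change of the read ratio of 18 partner pairs, siLINP1 against siNC, with 95% counting intervals. Blue intervals do not include 0, among them PCNA/RFC1 at -0.67 and RRM1/RRM2 at -0.44.

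Other genes of the pathway were taken from lists written with earlier results known. As background for these lists and the mitotic one, 53.2% of all genes with at least 100 reads were lower. The interval lay wholly below no change for 33.4% of them and wholly above for 28.8%. Intervals narrow with depth, and this background was not matched for it. Its median was 1099 reads, against 2124 for the mitotic list and 2885 for nucleotide supply. Of 34 further replication factors 23 were lower and 11 higher, with a median of -0.17 (interval of the median -0.43 to 0.07), and the interval lay wholly below no change for 16 and wholly above for 7. Under total count scaling the median was -0.09, and ORC2, RPA2 and CHTF8 turned higher. CLSPN, a fork checkpoint adaptor, had 753 and 377 reads (-0.79, -0.97 to -0.61), and RPA1, which coats single-stranded DNA, had 2449 and 1308 (-0.70, -0.79 to -0.60). TOP1, the topoisomerase that relieves twist ahead of the fork, was higher at 4134 and 5034 reads (0.49, 0.43 to 0.55), and so was DBF4, the activator of the CDC7 kinase, at 582 and 630 reads (0.32, 0.16 to 0.49).

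Nucleotide supply outside the members was lower for 13 of 16 genes, with a median of -0.21 (-0.47 to -0.01), intervals wholly below for 11 and wholly above for 1. Under total count scaling the median was -0.13, its interval included no change and ATIC turned higher. The thymidine kinase TK1 had 1952 and 1125 reads (-0.59, -0.69 to -0.48) and DTYMK, the thymidylate kinase, had 951 and 545 (-0.59, -0.75 to -0.44). GART, an enzyme of purine synthesis, had 1905 and 1923 reads (0.22, 0.13 to 0.32). Of 10 genes of chromatin replication 8 were lower, with a median of -0.14 (-0.26 to 0.02), 4 intervals wholly below and 1 wholly above. Under total count scaling the median was -0.05, and HELLS and RBBP4 turned higher. The histone chaperone ASF1B had 813 and 275 reads (-1.35, -1.56 to -1.16), a larger difference than that of any member, and CHAF1A, a subunit of the chromatin assembly factor, had 1134 and 847 (-0.21, -0.34 to -0.08). NASP, another histone chaperone, was higher at 1457 and 1906 reads (0.60, 0.50 to 0.70).

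Of the G1/S control genes 16 of 26 were higher, with a median of 0.06 whose interval (-0.09 to 0.30) included no change, 11 intervals wholly above and 6 wholly below. Total count scaling gave a median of 0.14. CDKN2C, an inhibitor of CDK4 and CDK6, had 721 and 1429 reads (1.20, 1.07 to 1.33), and CDK6 itself had 3968 and 5813 (0.76, 0.70 to 0.82). TFDP1, the dimer partner of E2F factors, was lower at 2474 and 1274 reads (-0.75, -0.85 to -0.65), and so was the CDK inhibitor CDKN1A at 15108 and 9682 (-0.43, -0.47 to -0.40). The 17 genes of the fork checkpoint and fork repair had a median of -0.02 (-0.27 to 0.08), which total count scaling turned to 0.06, with 6 intervals wholly below and 3 wholly above. BLM, a helicase, had 256 and 154 reads (-0.52, -0.82 to -0.23), and HUS1, a subunit of the checkpoint clamp, had 306 and 334 (0.34, 0.11 to 0.56). Of the recombination mediators at stalled forks, BRCA1 had 790 and 526 reads (-0.38, -0.54 to -0.22) and BRCA2 had 213 and 234 (0.35, 0.07 to 0.62).

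The 36 mitotic genes, which act later in the cell cycle, were lower in 31 cases, with a median of -0.27 (interval of the median -0.35 to -0.17) and -0.19 under total count scaling. Their intervals lay wholly below no change for 27 and wholly above for 1. They took 0.308% of the reads in siNC (exact 95% interval 0.306 to 0.311) and 0.271% in siLINP1 (0.268 to 0.274). PTTG1 (securin) had 1584 and 810 reads (-0.76, -0.88 to -0.64) and CDK1, the mitotic kinase, had 837 and 442 (-0.71, -0.88 to -0.54). TPX2, a spindle factor, had 2787 and 2912 reads (0.27, 0.20 to 0.35). The difference between the mitotic and the replication genes has no test, as each condition had 1 library.

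**Figure D4:**
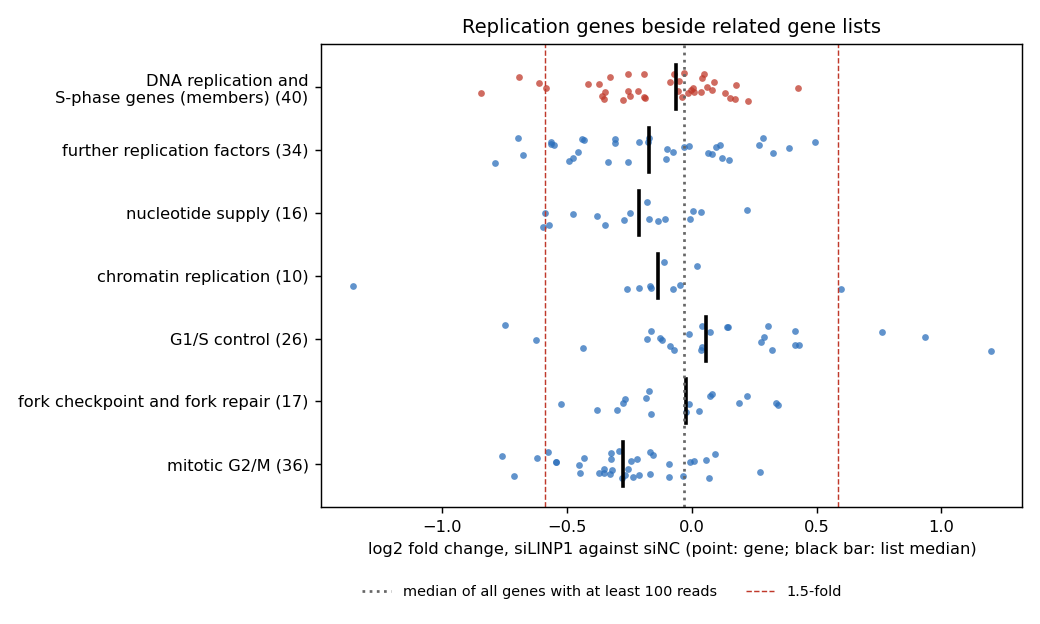
log2 fold change of single genes (points) and list medians (black bars) for the members and 6 related lists, beside the median of all genes with at least 100 reads (dotted). The members' median of -0.06 lies close to the dotted line at -0.03, and the mitotic median lies at -0.27.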

How the data were processed

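RNA sequencing of 1 siNC and 1 siLINP1 library of HSC-1 cells was analysed from the gene table that the authors deposited. Alignment by the authors was to hg19 with TopHat2, followed by HTSeq counting, and the deposited values are raw read counts per gene. The authors also deposited RPKM values, used here for levels. The labels further name HISAT, HISAT2 and Bowtie2. Versions, annotation, counting mode and strand setting are not given in the sources used here. Another 12 columns with values of single samples were left aside.

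For scaling, each library was divided by its median-of-ratios size factor (1.08 for siNC and 0.930 for siLINP1), and genes with fewer than 10 reads over both libraries were left out. No pseudocount was added. The 95% interval of a fold is the Clopper-Pearson one, from how a gene's reads divided between both libraries, that of a read ratio is the exact conditional interval, and that of a median comes from order statistics. Intervals cover counting error only, and no test across samples was possible. A gene was counted as past the limit above 1.5-fold. The members, lists and rules were chosen with earlier results of these data known. All members were named, and of each other list up to 2 genes with the largest rise and 2 with the largest fall by the nearer interval end. The alternatives were total count (CPM) and edgeR TMM scaling, minimums of 1 and 100 reads, pseudocounts of 1 and 5, removal of a lowess trend (fraction 0.3) with gene length or depth, a 2-fold limit, protein-coding genes only, a 99% interval and leaving out members that overlap other genes. The calculations were tested on simulated counts. TMM factors came from edgeR 4.0.16 in R 4.3.3, exact intervals from scipy 1.17.1 and trends from statsmodels 0.14.6, under Python 3.11.15.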

Additional observations from a re-analysis of the deposited data

How the results depend on the processing

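The direction of the members as a group depended on the scaling. Their median log2 fold change of -0.06 became 0.0203 under total count scaling, where the factors shift every gene by 0.08, and the number of members with the interval wholly above no change went from 3 to 6 while that wholly below went from 14 to 12, without MCM6 and E2F2. Under TMM scaling, pseudocounts, the removed trends and without the 8 members that overlap another gene the median lay between -0.10 and -0.03. Of the single members, MCM7 went to 0.24 under total count scaling and to 0.23 with the depth trend removed, and POLE to -0.365 with the length trend removed, while the others stayed inside their counting intervals in each scaling, pseudocount and trend alternative. E2F2 fell inside the 1.5-fold limit under total count and TMM scaling, which left 2 members past it. With a 2-fold limit, 0 members were lower.

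Among all genes, 2573 were lower and 2863 higher by more than 1.5-fold. With at least 1 read the numbers were 6456 and 7048, with at least 100 reads 903 and 1163, among protein-coding genes 1492 and 1558, and beyond 2-fold 1057 and 1338. Total count scaling gave 2069 and 3314. Depth limited E2F2, CCNE2 and POLE2 most, with 119 to 139 reads each over both libraries. No paired analysis was possible because each condition had 1 library.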
